A study of Mus musculus with 42 samples.

Results

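Trophectoderm of the E3.5 mouse blastocyst was set against the morula, the stage before it, in 6240 of the 24083 genes of a table of embryonic stages. A gene was taken where its maternal and paternal values together came to at least 5 FPKM (fragments per kilobase of transcript, scaled to library size) in trophectoderm or morula and were above 0 in both. Of these genes, 4615 reached 5 FPKM in both groups, 1017 in trophectoderm alone and 608 in morulae alone. Another 33 genes had 5 FPKM or more in trophectoderm and were listed at 0 in morulae, and 42 had 5 FPKM or more in morulae and were listed at 0 in trophectoderm. No ratio is given for those 75 genes.

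The groups were female wild-type trophectoderm at E3.5 (3 samples) and female wild-type morulae (3 samples), all with C57BL/6N mothers and PWK/PhJ fathers, profiled with Smart-seq2, a full-length poly(A) method for very small inputs that does not keep the strand. The authors deposited 1 maternal and 1 paternal column per group that pool its 3 samples, so no spread between samples exists and no difference below was tested. A ratio of 2 on FPKM + 1 serves as a rule of size, and log2 ratios are trophectoderm over morula on that scale. A second set of wild-type female morulae of the same cross (3 samples, named control in the labels) stood in a table normalized separately, and its values are given for the main groups and for genes described here whose call it changes. How the trophectoderm was separated from the inner cell mass is not given in the sources used here. Every mother was C57BL/6N and every father PWK/PhJ, so a difference between alleles can be one of parent or of strain. The morula columns hold whole embryos, and in such bulk samples fewer cells of a type and less RNA per cell cannot be told apart. Summed FPKM was 394775 in trophectoderm and 399289 in morulae, and read depth is unknown.

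The trophectoderm is the first epithelium of the mammalian embryo, formed by the outer, polarized cells of the morula. It seals itself with tight junctions, pumps sodium to fill the blastocoel with fluid, and later builds the fetal part of the placenta. In outer cells the Hippo pathway is off, Yap1 with the DNA-binding protein Tead4 turns on Cdx2 and Gata3, and genes of pluripotency are shut down. In female mice the paternal X chromosome is silenced in the early embryo under imprinted control by the RNA Xist, and this silencing is kept in the trophectoderm and its descendants.

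In trophectoderm 1355 of 6240 genes (21.7%) were at least 2-fold higher than in morulae, 1053 (16.9%) were at least 2-fold lower, and 3832 lay between. At least 4-fold differences were seen in 521 higher and 307 lower genes, and at least 16-fold differences in 89 higher and 34 lower genes. The median log2 ratio over all 6240 genes was 0.02, with quartiles at -0.69 and 0.84. Higher genes made up 56.3% of the genes past 2-fold. Against the control female morulae the median was 0.35 over the same genes, and 68.9% of the genes past 2-fold were higher (1554 of 6088 genes higher, 25.5%, and 702 lower, 11.5%). With the median of that comparison set to 0, 49.9% were higher (1051 higher and 1056 lower), and with at least 5 FPKM in both trophectoderm and stage-table morulae 48.0% were, so the excess of higher genes was not seen under either setting. Of the 1355 higher genes, 936 were also at least 2-fold higher against the control female morulae (69.1%), and 69 had the opposite sign. Of the 1053 lower genes, 464 were also at least 2-fold lower (44.1%), and 116 had the opposite sign. Taken from the other side within the 6240 genes, 1600 were at least 2-fold higher against the control female morulae and 617 lower. Of these, 58.5% of the higher and 75.2% of the lower were past 2-fold the same way against the stage-table morulae. The 6240 genes were chosen on the stage-table morulae, so these counts differ from the 1554 and 702 of 6088 above. The 2 sets of morulae differed by a median log2 ratio of -0.33 (control over stage table), a shift that these shares include. The gene just inside the 5 FPKM limit was Slc39a11 (5.0 FPKM in trophectoderm and 1.29 in morulae) and the one just outside it was Pfkfb1 (4.99 and 2.81 FPKM).

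**Figure D1:**
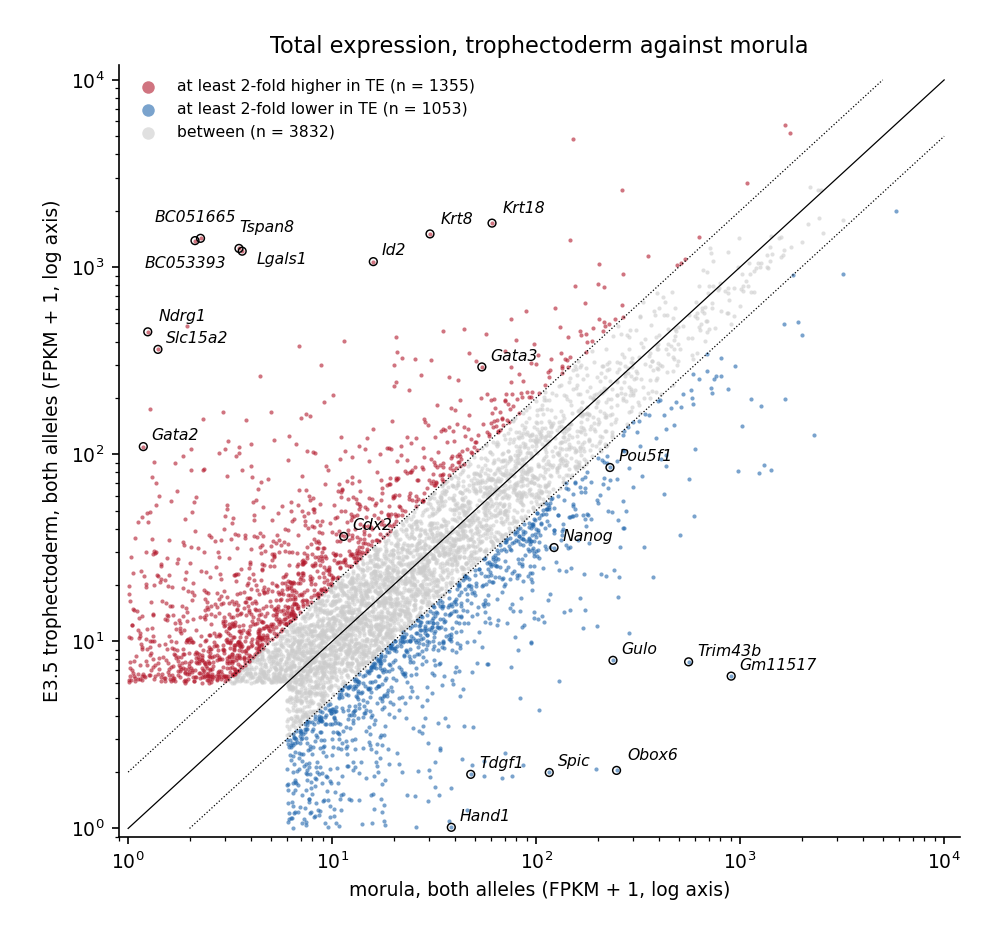
Total FPKM + 1 of each of the 6240 genes in trophectoderm (vertical, log axis) and in morula (horizontal, log axis), with the line of equal values and dotted lines at 2-fold. Red points are the 1355 genes at least 2-fold higher in trophectoderm, blue points the 1053 at least 2-fold lower and grey points the 3832 between; circled genes are named in the text.

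The other columns of the stage table describe the genes past 2-fold further, with a limit: a lower gene had to reach 5 FPKM in morulae, while a higher gene could enter through trophectoderm alone. The values at the 8-cell stage are partly set by this choice, and nothing is read from the contrast. The higher genes had a median of 19.6 FPKM in trophectoderm and 3.85 in morulae. Their median at the 8-cell stage was 2.19 FPKM. Of them, 428 of 1355 (31.6%) were below 1 FPKM at the 8-cell stage, against 22 of 1053 lower genes (2.09%) and 123 of 3832 genes between (3.21%). The lower genes had a median of 8.14 FPKM in trophectoderm and 28.1 in morulae. At the 8-cell stage their median was 16.4 FPKM. In extraembryonic ectoderm at E6.5, a tissue descended from the trophectoderm, 967 of the higher genes (71.4%) and 728 of the lower genes (69.1%) had at least 5 FPKM, against 3422 of the genes between (89.3%). The inner cell mass, the other tissue of the same blastocyst stage, had medians of 10.6 FPKM for the higher and 16.3 FPKM for the lower genes.

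Most differences on autosomes were found on both alleles, each read separately. Of 1298 autosomal genes that were higher, 892 were at least 2-fold higher on the maternal and on the paternal allele (68.7%), 170 on the maternal allele alone and 212 on the paternal allele alone. Of 1014 autosomal genes that were lower, 672 were at least 2-fold lower on both alleles (66.3%), 181 on the maternal alone and 149 on the paternal alone.

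The largest ratios belonged to genes that were nearly silent in morulae. BC053393 had 1383 FPKM in trophectoderm and 1.13 in morulae (log2 ratio 9.35), and BC051665 had 1423 FPKM in trophectoderm and 1.26 in morulae (9.30). Ndrg1, a gene responsive to stress and differentiation, had 450 FPKM in trophectoderm and 0.248 in morulae (8.50). The tetraspanin gene Tspan8 had 1256 and 2.49 FPKM (8.49) and Lgals1, which encodes the sugar-binding protein galectin-1, 1215 and 2.62 FPKM (8.39), trophectoderm first in each pair. All 5 genes were past 2-fold by either reference, the control female morulae holding 33.6 FPKM of BC053393, 0.527 of BC051665, 3.10 of Ndrg1, 7.57 of Tspan8 and 28.1 of Lgals1. BC053393 and Dppa1 (485 FPKM in trophectoderm and 0.942 in morulae) are neighbours on chromosome 11, with 0 protein-coding genes between them in RefSeq. Membrane transporters were also among the first 15: the peptide transporter gene Slc15a2 had 362 FPKM in trophectoderm and 0.400 in morulae (8.02), and the carnitine transporter gene Slc22a5 had 173 FPKM in trophectoderm and 0.274 in morulae (7.09). The others of the first 15 were Gata2, B3gnt5, Id2, Msn, Fam213b, Glipr1 and Slc9a3r1, with log2 ratios of 6.53 to 5.84.

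At the other end stood genes with little transcript left in trophectoderm. Some of them were higher at the 8-cell stage than in morulae, such as Spic with 787 FPKM there, and others were lower, such as Gulo with 39.6 FPKM. Gm11517 had 5.52 FPKM in trophectoderm and 903 in morulae (log2 ratio -7.12), and stood at 2030 FPKM in 8-cell embryos. Obox6, of an oocyte-specific homeobox family, had 1.04 FPKM in trophectoderm and 247 in morulae (-6.92). The tripartite-motif genes Trim43c and Trim43b, which lie near each other on chromosome 9, had 1.08 and 6.77 FPKM in trophectoderm, against 195 and 558 FPKM in morulae; as near copies of one another they may share reads. Spic, which encodes an Ets-family factor, had 0.991 FPKM in trophectoderm and 115 in morulae (-5.86). Metabolic genes in this group were Tdh, the threonine dehydrogenase of mouse pluripotent cells (0.862 FPKM in trophectoderm and 66.9 in morulae), and Gulo, the last enzyme of vitamin C synthesis (6.91 and 237 FPKM). Id3, an inhibitor of basic helix-loop-helix factors, had 10.1 FPKM in trophectoderm and 285 in morulae (-4.69), whereas the related Id2 had 1068 FPKM in trophectoderm and 14.9 in morulae (6.07). Against the control female morulae the log2 ratio of Id3 was -1.68. The rest of the 15 lowest were Plbd1, Fbxl20, Hand1, Cthrc1, Sp110, Ppt2 and Parp8, with log2 ratios of -5.32 to -4.79.

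Transcription factors of the trophectoderm were mostly higher. Of 15 listed factors in the comparison, 10 were higher by 2-fold or more and 1 lower, with a median log2 ratio of 3.38 beside 0.02 for all genes. Over all genes 21.7% were higher and 16.9% lower. With the control female morulae 12 factors were higher and 1 lower (median 2.52). Some factors, such as Gata2 and Grhl1, were under 5 FPKM in morulae and entered through trophectoderm alone, so the minimum fixed their direction. Gata2 had 58.2 maternal and 50.6 paternal FPKM in trophectoderm, against 0.133 maternal and 0.0533 paternal FPKM in morulae (log2 ratio 6.53). Gata3, which acts beside Cdx2 downstream of Tead4, had 162 maternal and 130 paternal FPKM in trophectoderm, against 35.4 and 17.8 FPKM in morulae (2.43). Cdx2, the homeobox factor needed to keep the trophectoderm fate, had 14.9 maternal and 20.5 paternal FPKM in trophectoderm, against 6.5 and 3.89 FPKM in morulae (1.67). Both alleles of all 3 genes were higher in trophectoderm. The T-box factor gene Eomes, required for trophoblast development, had 101 FPKM in trophectoderm and 7.06 in morulae (3.66), and the grainyhead factor gene Grhl1 had 42.0 and 2.24 FPKM (3.73). Elf5, a factor of trophoblast stem cells, had 16.1 FPKM in trophectoderm and was listed at 0 in morulae. Factors that act before the lineages part differed less: Tead4 had 23.7 FPKM in trophectoderm and 45.2 in morulae (-0.90), Tfap2c 46.3 and 63.2 FPKM (-0.44) and Klf5 269 and 208 FPKM (0.37). Hand1, a helix-loop-helix factor of later trophoblast giant cells, was the exception, with 0.0140 FPKM in trophectoderm and 37.4 in morulae (-5.24), and the control female morulae had 7.47 FPKM.

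Most listed structural genes of the epithelium were higher, a direction partly set by the choice of genes. Among 21 keratin and junction genes, 17 were higher by 2-fold or more and none lower, with a median log2 ratio of 1.53. The rates over all genes were 21.7% and 16.9%. Against the control female morulae 14 were higher and 1 lower (median 1.70). Members such as Cldn3, Dsc2 and Dsg2 were under 5 FPKM in morulae and entered through trophectoderm alone, so the minimum fixed their direction. The keratin gene Krt8 had 874 maternal and 628 paternal FPKM in trophectoderm, against 18.1 and 11.1 FPKM in morulae (5.64). Its filament partner Krt18 had 974 maternal and 742 paternal FPKM in trophectoderm, against 40.8 and 19 FPKM in morulae (4.82). The size of the keratin difference depended on the morulae: the control female morulae had 182 FPKM of Krt8 and 367 of Krt18, which gives log2 ratios of 3.04 and 2.22. The tight-junction gene Cldn3 had 74.1 FPKM in trophectoderm and 3.05 in morulae (4.21), and the desmosome genes Dsc2 and Dsg2 had 16.9 and 9.32 FPKM in trophectoderm, against 0.0119 and 0.226 FPKM in morulae. Cldn4 had 524 FPKM in trophectoderm and 203 in morulae (1.36), but 428 FPKM in the control female morulae (0.29). The adhesion gene Cdh1, active since compaction, had 87.8 FPKM in trophectoderm and 43.3 in morulae, just past 2-fold, and the junctional plaque gene Jup was almost level at 6.67 and 6.75 FPKM (-0.01). Among listed markers of the epithelium, Krt7, Elf3 and Epcam were listed at 0 in both groups, and Krt19 had 2.09 FPKM in trophectoderm and 1.91 in morulae.

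**Figure D2:**
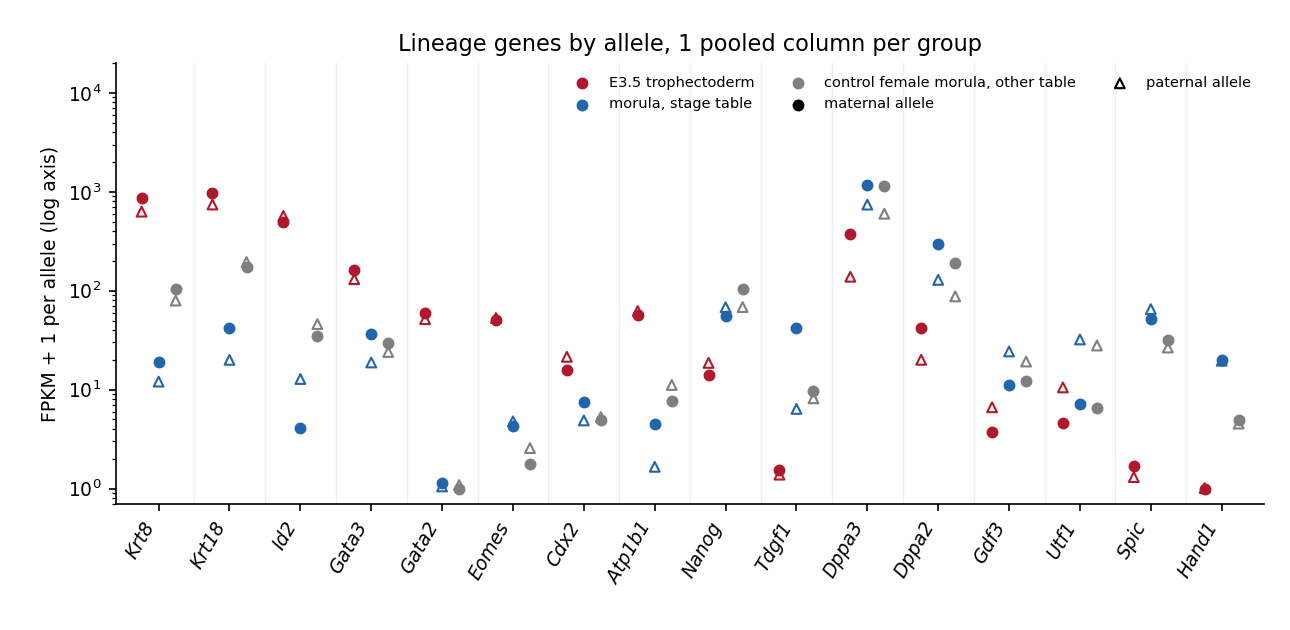
FPKM + 1 per allele (vertical, log axis) of 8 trophectoderm genes and 8 genes that were higher in morulae, with filled circles for the maternal and open triangles for the paternal allele. Trophectoderm (red) lies above both morula groups (blue and grey) on each allele of Krt8, Krt18, Id2, Gata3, Gata2, Eomes, Cdx2 and Atp1b1, and below both in the other genes.

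The proximal promoters of 4 of these genes are printed because the genes were higher together on both alleles. The sequences are those of RefSeq on GRCm38.p6, which is not the build of the files. Each runs 5′ to 3′ on the strand of its gene and covers 250 bases before and 50 bases after the annotated start. They lie at chr15:102004293-102004592 (minus strand) for Krt8, chr15:102027966-102028265 (plus strand) for Krt18, chr2:9878551-9878850 (minus strand) for Gata3 and chr5:147307200-147307499 (minus strand) for Cdx2. Capitals mark matches, on either strand, to 4 motif spellings: GGAATG for TEAD factors, AGATAA for GATA factors, GCCNNNGGC for AP-2 factors and CCCCACCC for KLF factors.
Krt8: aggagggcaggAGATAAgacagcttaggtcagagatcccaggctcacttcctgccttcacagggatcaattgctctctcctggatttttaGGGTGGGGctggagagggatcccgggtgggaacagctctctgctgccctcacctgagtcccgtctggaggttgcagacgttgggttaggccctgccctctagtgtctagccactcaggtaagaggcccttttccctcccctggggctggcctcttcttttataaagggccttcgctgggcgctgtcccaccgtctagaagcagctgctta
Krt18: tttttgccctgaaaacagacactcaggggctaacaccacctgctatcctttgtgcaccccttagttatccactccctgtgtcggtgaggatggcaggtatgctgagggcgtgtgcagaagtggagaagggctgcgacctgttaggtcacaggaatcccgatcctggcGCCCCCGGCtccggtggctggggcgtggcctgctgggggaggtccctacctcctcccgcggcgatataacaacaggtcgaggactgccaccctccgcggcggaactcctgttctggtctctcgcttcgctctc
Gata3: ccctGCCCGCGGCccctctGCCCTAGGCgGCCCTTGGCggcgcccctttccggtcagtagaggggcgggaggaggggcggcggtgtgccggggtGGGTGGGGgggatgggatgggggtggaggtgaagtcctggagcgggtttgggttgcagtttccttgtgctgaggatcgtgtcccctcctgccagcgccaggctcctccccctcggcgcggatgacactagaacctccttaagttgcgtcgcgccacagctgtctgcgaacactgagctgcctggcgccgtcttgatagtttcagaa
Cdx2: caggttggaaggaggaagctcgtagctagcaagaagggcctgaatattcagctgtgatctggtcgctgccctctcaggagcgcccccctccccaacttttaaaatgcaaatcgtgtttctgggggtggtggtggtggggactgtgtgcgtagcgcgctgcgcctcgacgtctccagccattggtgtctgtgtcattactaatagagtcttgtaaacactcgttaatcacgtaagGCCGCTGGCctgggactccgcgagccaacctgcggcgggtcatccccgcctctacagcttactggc
Krt8 held 1 GATA and 1 KLF spelling, Krt18 and Cdx2 1 AP-2 spelling each, and Gata3 3 AP-2 spellings and 1 KLF spelling. The AP-2 spelling was present in 27.9% of 1089 higher genes with a listed promoter, 23.7% of 845 lower genes, 23.9% of 3159 genes between and 16.5% of all 27025 promoters. For KLF these shares were 15.5%, 12.3%, 11% and 9.89%, for TEAD 14.6%, 12.9%, 9.94% and 14.6%, and for GATA 6.52%, 7.22%, 5.89% and 11.4%. A match describes letters and does not show that a factor binds there.

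Polarity and actin genes followed the keratins. Of 23 members, 18 passed 2-fold upward and 2 downward, with a median log2 ratio of 1.68, where all genes gave 21.7% and 16.9%. Against the control female morulae 15 were higher and 1 lower (median 1.35). Msn, Lcp1 and Ezr were under 5 FPKM in the stage-table morulae and entered through trophectoderm alone, so the minimum fixed their direction there. Msn, which encodes the membrane-to-actin linker moesin, had 154 FPKM in trophectoderm and 1.33 in morulae (6.06). The related Ezr, which encodes ezrin, had 13.8 FPKM in trophectoderm and 4.2 in morulae (1.51) but 20.3 FPKM in the control female morulae, so its direction depended on the morulae used (-0.52 there). The actin-bundling gene Lcp1 had 21.2 FPKM in trophectoderm and 0.197 in morulae (4.21), and the apical kinase gene Prkcz had 53.0 and 12.5 FPKM (2.00). Cytoplasmic actin genes, at the top of the range, were also past 2-fold: Actb had 5206 FPKM in trophectoderm and 1750.3 in morulae (1.57). The lower genes were Sfn, which encodes an epithelial 14-3-3 protein (223 FPKM in trophectoderm and 871 in morulae), and the apical Crumbs gene Crb3 (25.7 and 57.5 FPKM, with a log2 ratio of -0.96 against the control female morulae).

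Fluid transport genes were higher in part. Of 10 members, 6 passed 2-fold upward and 1 downward, with a median of 1.25, beside 21.7% and 16.9% of all genes. By the control female morulae the counts were also 6 and 1 (median 1.46). Atp1b1, Fxyd6 and Slc9a3r1 were under 5 FPKM in morulae and entered through trophectoderm alone, so their direction was fixed by the minimum. Atp1b1, the main beta subunit of the sodium pump, had 117 FPKM in trophectoderm and 4.21 in morulae (4.51), while another beta subunit gene, Atp1b3, had 56.2 and 79.98 FPKM (-0.50, and 0.24 against the control female morulae). The pump regulator gene Fxyd6 stood at 52.6 FPKM in trophectoderm and 0.367 in morulae (5.29), and Slc9a3r1, which encodes a scaffold for apical transporters, at 167 and 1.93 FPKM (5.84). The water channel gene Aqp9 had 41.5 FPKM in trophectoderm and 16.3 in morulae (1.29), and Aqp3 had 177 and 231 FPKM (-0.38, and 0.52 against the control female morulae).

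The Hippo pathway itself was nearly level. Of 12 members, 3 passed 2-fold upward (Tead2, Tead1 and Amotl2) and none downward, with a median of 0.01. Tead2 had 23.3 FPKM in trophectoderm and 2.56 in morulae (2.77), and the coactivator gene Yap1 had 5.36 and 4.80 FPKM (0.13). By the control female morulae 7 of 12 were past 2-fold upward and the median was 1.27, so the level result held for the stage-table morulae alone.

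Most listed ligand genes in the comparison were higher, a direction partly set by the choice of genes. Of 29 listed, 8 entered, 7 of them at least 2-fold higher and 1, Gdf3, lower. The other 21 were under 5 FPKM in both groups. Wnt3a, Wnt6, Hbegf, Il6 and Spp1 were under 5 FPKM in morulae and entered through trophectoderm alone. Their direction was therefore fixed by the minimum, and no trend of ligands is read from the count. Of all genes, 21.7% were at least 2-fold higher. The Wnt ligand genes Wnt3a, Wnt6 and Wnt7b had 18.3, 10.4 and 24.2 FPKM in trophectoderm, against 0.864, 0.803 and 5.70 FPKM in morulae. Hbegf, a ligand of the Egf receptor family known for its part in implantation, had 9.69 FPKM in trophectoderm and 0.328 in morulae (3.01). The cytokine gene Il6 had 28.9 FPKM in trophectoderm and 0.369 in morulae (4.45), and Pdgfa, the ligand of the receptor found on primitive endoderm, had 123 and 22.2 FPKM (2.42). Spp1, which encodes osteopontin, had 81.1 FPKM in trophectoderm and 1.04 in morulae, against 30.9 FPKM in the control female morulae. Among 8 receptor genes, 5 were past 2-fold upward and 2 downward (median 1.08). Against the control female morulae 3 were higher and 1 lower (median 0.49, beside 0.35 for all genes). Over all genes 21.7% were higher and 16.9% lower against the stage-table morulae. Fgfr2, the receptor for the Fgf4 of the inner cell mass, had 20.9 FPKM in trophectoderm and 9.07 in morulae (1.12).

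Pluripotency genes were lower as a group. Of 15 members, 12 passed 2-fold downward and 1 upward, with a median of -1.88, beside 16.9% and 21.7% of all genes. Against the control female morulae 10 of 15 were at least 2-fold lower (median -1.68). Nanog had 13 maternal and 17.7 paternal FPKM in trophectoderm, against 54.3 and 67.1 FPKM in morulae (-1.95). Tdgf1, a co-receptor for Nodal, had 0.946 FPKM in trophectoderm and 46.8 in morulae (-4.62). It entered through morulae alone, so its direction was fixed by the minimum. The linked nuclear protein genes Dppa2 and Dppa4 had 60.2 and 21.8 FPKM in trophectoderm, against 423 and 170 FPKM in morulae. Pou5f1, which encodes Oct4, had 83.9 FPKM in trophectoderm and 229 in morulae (-1.44, and -0.70 against the control female morulae), with the paternal allele at 0 in both groups. The factor genes Sall4 (-0.41) and Tfcp2l1 (-0.55) lay between, although Sall4 was past 2-fold upward against the control female morulae (1.39). The higher gene was Dppa5a, an RNA-binding protein gene of pluripotent cells, with 5715 FPKM in trophectoderm and 1657 in morulae (1.79, and 0.92 against the control female morulae). Transcripts of Pou5f1 and Nanog were therefore still present in the trophectoderm column.

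Few listed markers of other cells reached 5 FPKM. Of 18 primitive endoderm markers 13 were under 5 FPKM in both groups, and Gata6, an early factor of that lineage, had 10.9 FPKM in trophectoderm and 19.2 in morulae. Of the other 5, 2 were past 2-fold upward (21.7% over all genes), and none against the control female morulae. Dab2, an endocytic adaptor gene, had 209 FPKM in trophectoderm and 74.8 in morulae (1.47, and 0.74 against the control female morulae). Of 10 cumulus and granulosa cell markers 9 were under 5 FPKM in both groups, 5 of them listed at 0 in both, which is not read as absence. The summed level of the 10 was 2.35 FPKM in trophectoderm and 14.3 in morulae, where Amhr2 made up 11.7 FPKM. Of 30 oocyte genes 26 were under 5 FPKM in both groups; the zona pellucida gene Zp3 had 0.672 FPKM in trophectoderm and 30.9 in morulae, whereas Ooep, of the subcortical maternal complex, had 155 FPKM in trophectoderm and 6.06 in morulae. Of 20 genes of later trophoblast, 17 were under 5 FPKM in both groups, and the placental gene Plac1 had 62.8 FPKM in trophectoderm and 0.742 in morulae (5.20).

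Transcripts for several steps of glucose metabolism were higher. Of 14 glycolysis and lactate genes 9 passed 2-fold upward and 2 downward, with a median of 2.28. The glucose transporter gene Slc2a3 had 229 FPKM in trophectoderm and 19.1 in morulae (3.52), Hk2, the first enzyme of the pathway, had 38.3 and 5.09 FPKM (2.69), Tpi1 had 189 and 8.16 FPKM (4.37) and the lactate transporter gene Slc16a1 had 70.9 and 10.8 FPKM (2.60). The other hexokinase gene, Hk1, had 0.0599 FPKM in trophectoderm and 13 in morulae (-3.73), the opposite direction to Hk2. With the control female morulae 7 of 14 were past 2-fold upward and the median was 1.21. A separate list, 11 transporters of amino acids and metals, was mixed: 5 passed 2-fold upward and 2 downward, with a median of 0.73. Its log2 ratios were above 0 for 6 members and below 0 for 5. The rates over the whole comparison were 21.7% upward and 16.9% downward. Slc6a14 (57.9 FPKM in trophectoderm and 1.14 in morulae) led the upward ones, which included the zinc transporter gene Slc39a2 (121 and 13.9 FPKM). Among the downward ones was the transferrin receptor gene Tfrc (3.28 and 102.5 FPKM).

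Large families of housekeeping genes differed from one another. All 61 oxidative phosphorylation subunits in the comparison had a log2 ratio above 0 (median 0.85, 22 at least 2-fold higher, none lower), with Ndufs4 of complex I at 91.9 FPKM in trophectoderm and 22.3 in morulae (2.00) and Cox5a of complex IV at 1148 and 353 FPKM (1.70, and 0.96 against the control female morulae). By that second reference, the control female morulae, their median was 0.32, below the median of 0.35 for all genes, and 8 of 61 passed 2-fold upward and 1 downward. Cytosolic ribosomal protein genes leaned the other way, with 57 of 63 below 0, a median of -0.32 and 3 at least 2-fold lower, and a median of -0.40 against the control female morulae. Proteasome subunits had a median of -0.16, with 14 above and 18 below 0 and 1 of 32 at least 2-fold lower. Of 24 cell cycle genes, 21 were below 0 and 8 at least 2-fold lower (median -0.76), among them Ccne1, the cyclin of S-phase entry, at 22.9 FPKM in trophectoderm and 239 in morulae (-3.33), and the mitotic kinase gene Cdk1 at 39.3 and 264 FPKM (-2.72, and -0.41 against the control female morulae). Of 78 zinc finger Zfp genes 27 were at least 2-fold lower and 3 higher (median -0.70), beside 16.9% and 21.7% of all genes. Both medians were above 0 against the control female morulae, 0.08 for the cell cycle and 0.21 for Zfp genes, where that of all genes was 0.35. Relative to the median of all genes there, the cell cycle median was -0.26, with 16 of 24 genes below 0, and the Zfp median -0.10. The p53 target gene Cdkn1a, an inhibitor of the cell cycle, showed how far the morulae differed, with 5.59 FPKM in trophectoderm, 13.5 in the stage-table morulae and 231 in the control female morulae.

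**Figure D3:**
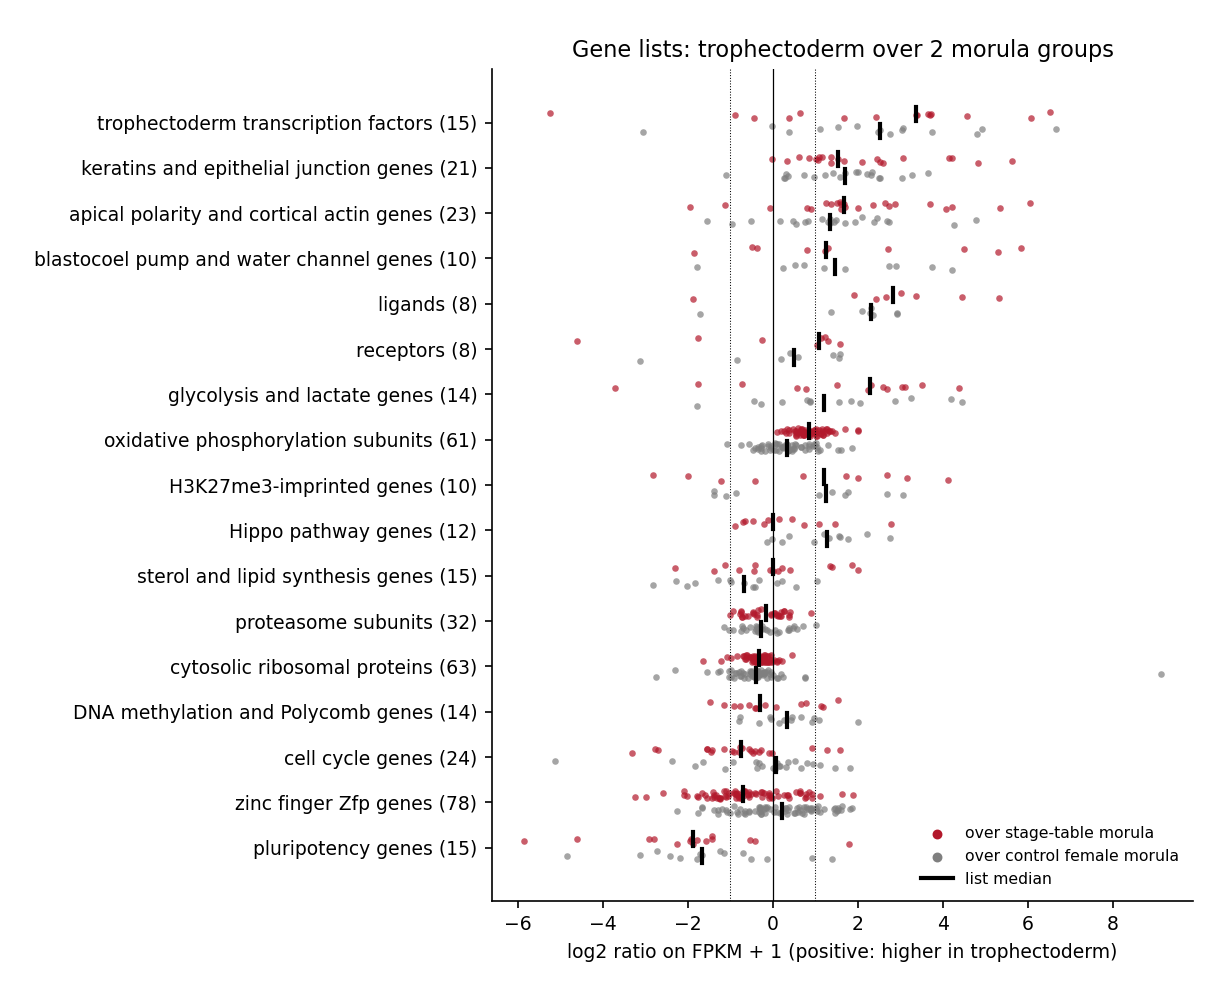
Log2 ratios of trophectoderm over the stage-table morula (red) and over the control female morula (grey) for the members of 17 gene lists, with black bars at the list medians and dotted lines at 2-fold. The trophectoderm factors and keratins lie mostly right of 0 and the pluripotency genes left of 0 by either reference, while the cell cycle, Zfp and Hippo medians differ between the references.

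Enzymes of sterol synthesis, genes of the lysosome and genes of DNA methylation and Polycomb passed 2-fold in shares near those of all genes (21.7% higher and 16.9% lower) or with no common direction. Of 15 sterol and lipid genes 4 passed 2-fold upward and 3 downward (median 0.00), and against the control female morulae 1 was higher and 6 lower (median -0.68). Fdft1, which encodes squalene synthase, had 16.05 FPKM in trophectoderm and 83.3 in morulae (-2.31). Among 20 lysosomal genes 4 were higher and 6 lower. The proton pump subunit gene Atp6v1g1 had 195 FPKM in trophectoderm and 58.9 in morulae (1.71), whereas another pump subunit gene, Atp6v0a1, was lower (-1.20), and the cathepsin gene Ctsz had 40.5 and 175 FPKM (-2.08). Relative to the median of all genes against the control female morulae, 0 lysosomal genes were past 2-fold upward and 4 downward. Of 14 genes of DNA methylation and Polycomb, 3 passed 2-fold upward and 2 downward (median -0.30). Dnmt3l, a cofactor of the methyltransferases, had 69.8 FPKM in trophectoderm and 31.2 in morulae (1.14), and the Polycomb subunit gene Pcgf6 had 11.8 and 34.6 FPKM (-1.47). Neither passed 2-fold against the control female morulae, where Dnmt3l had a log2 ratio of 0.14 and Pcgf6 one of -0.051.

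On the X chromosome the medians of the alleles shifted in opposite directions, while the median of the total was near that of autosomes. These are medians over genes, and the shifts need not fall in the same genes, as the classes by morula share below describe. By the 2-fold rule 55 of 199 X-linked genes were higher (27.6%) and 36 lower (18.1%), with a median log2 ratio of 0.03 beside 0.02 for 6024 autosomal genes. The maternal allele of X-linked genes had a median of 0.31 (autosomal -0.00), and the paternal allele a median of -0.76 (autosomal 0.04). In the 138 X-linked genes with at least 5 FPKM in both groups, the maternal median was 0.12 (autosomal -0.08) and the paternal median -1.0 (autosomal -0.03). The maternal difference was thus smaller with the stricter minimum, and the paternal one was not. With the control female morulae the X-linked medians were 0.66 maternal and -0.83 paternal, and the autosomal ones 0.32 and 0.30.

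**Figure D4:**
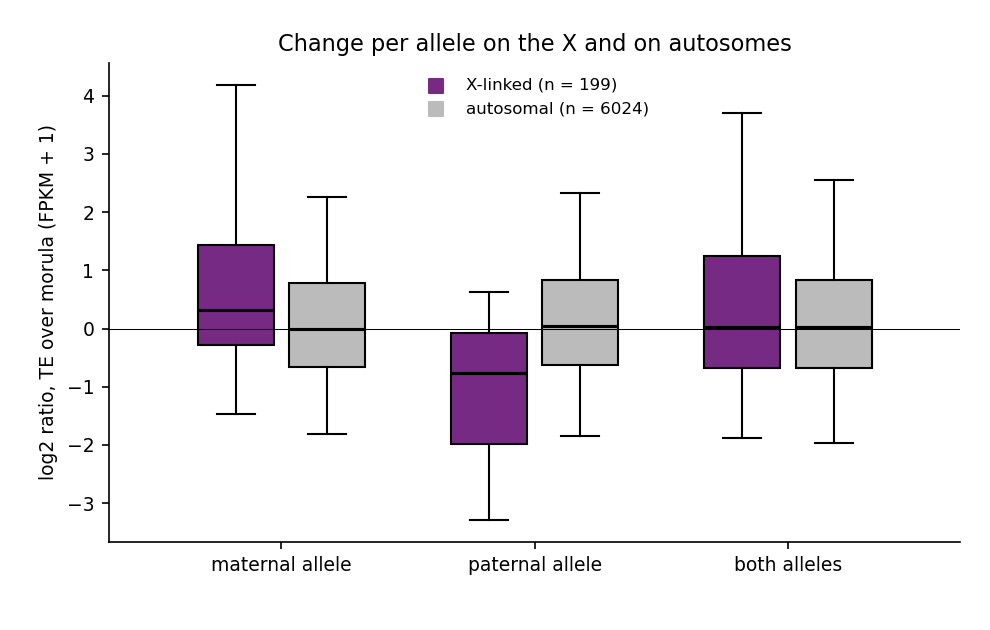
Log2 ratios of trophectoderm over morula on FPKM + 1 for the maternal allele, the paternal allele and both together, for 199 X-linked genes (purple) and 6024 autosomal genes (grey); boxes give the quartiles with the median as a line, and whiskers the 5th and 95th percentiles. The X-linked medians are 0.31 for the maternal and -0.76 for the paternal allele, against values near 0 for autosomes.

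X-linked genes that were higher in trophectoderm were so on the maternal allele. Of the 55 higher genes 49 were at least 2-fold higher on the maternal allele alone (89.1%), 6 on both alleles and none on the paternal allele alone, against 13.1% maternal alone among the 1298 higher autosomal genes. Both alleles had a log2 ratio above 0 in 25 of the 55. Their median paternal share in morulae was 12.1%, against 46.0% for the higher autosomal genes. Ratios on FPKM + 1 are damped for low paternal values, so the 2 percentages are not at matched paternal levels. The same counts, 49 of 55, were found against the control female morulae, where 17% of higher autosomal genes were so on the maternal allele alone. The moesin gene Msn had 154 maternal and 0.163 paternal FPKM in trophectoderm, against 1.33 and 0 FPKM in morulae. Pgk1, a glycolytic enzyme gene, had 81.3 maternal and 0.316 paternal FPKM in trophectoderm, against 7.78 and 0.770 FPKM in morulae. Plac1 had 62.8 maternal FPKM and a paternal value of 0 in trophectoderm, against 0.433 and 0.309 FPKM in morulae, and the amino acid transporter gene Slc6a14 had 57.0 maternal and 0.851 paternal FPKM in trophectoderm, against 0.859 and 0.286 FPKM in morulae. The 6 genes higher on both alleles included Ngfrap1, Mpp1, Slc6a8 and Rab9, named after their values were seen. The creatine transporter gene Slc6a8 had 50.2 maternal and 21.2 paternal FPKM in trophectoderm, against 13.4 and 2.98 FPKM in morulae. Its control female morula values were 60.3 and 20.6 FPKM, so this difference was not seen there. Of the 36 lower X-linked genes, 16 were at least 2-fold lower on both alleles, 16 on the paternal allele alone and 4 on the maternal allele alone.

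The paternal share, the paternal FPKM as a percentage of both alleles, was lower in trophectoderm for most X-linked genes. Over the 138 X-linked genes with at least 5 FPKM in both groups the median was 10.5% in trophectoderm and 29.1% in morulae. Gene by gene, the median difference was -15.2 points (quartiles -23.2 and -5.32), with 122 genes lower, 12 higher and 4 equal. Of them 52 (37.7%) were at least 20 points lower and 1 higher, where 3.55% of all 4615 genes at these levels were at least 20 points lower and 3.66% higher; for 4464 autosomal genes these were 2.51% and 3.74%. Autosomal genes had medians of 49.0% in trophectoderm and 48.0% in morulae, and 44.2% of them were lower in trophectoderm by any amount. Over all members the median difference of single autosomes ranged from 0.17 points on chromosome 1 to 2.54 points on chromosome 13, and that of the X was -14.9 points. Of all 6240 genes, 6.25% were at least 20 points lower and 6.78% higher. With the control female morulae the difference was -17.8 points over the 196 X-linked members that had a share there.

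The shares in trophectoderm are also given by the share in morulae; the classes are chosen by that morula value, so part of any difference is fixed by the choice. Of 42 X-linked genes above 40% in morulae, 6 stayed above 40% in trophectoderm, 20 lay above 20 to 40%, 14 above 5 to 20% and 2 at 5% or less. Of 52 genes above 20 to 40% in morulae, 19 were at 5% or less in trophectoderm. Of 33 genes above 5 to 20% in morulae, 22 were at 5% or less, and of 11 genes already at 5% or less in morulae 10 remained so and the other was Vbp1. The genes above 40% in morulae had a median log2 ratio of 0.02 on the maternal and -1.22 on the paternal allele. In total their median was -0.47. For genes above 20 to 40% the maternal, paternal and total medians were 0.0009, -1.41 and -0.28. Those above 5 to 20% had 0.35, -0.66 and 0.12, and those at 5% or less 0.38, 0 and 0.38. In the classes with the largest paternal difference the maternal median was thus near 0.

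**Figure D5:**
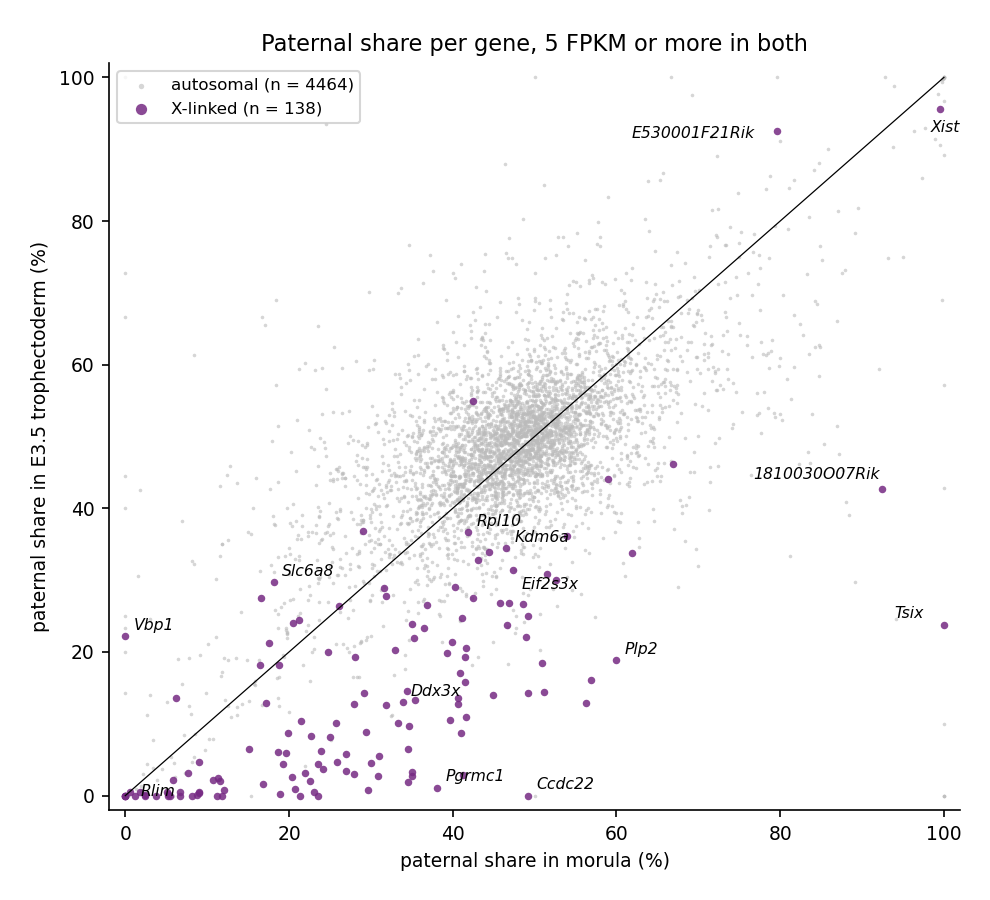
Paternal share in trophectoderm (vertical, percent) and in morula (horizontal, percent) for 138 X-linked genes (purple) and 4464 autosomal genes (grey) with at least 5 FPKM in both, with the line of equal shares. Most X-linked points lie below the line, 122 of 138, and Vbp1 is the one X-linked gene at least 20 points above it.

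Single genes gave the range of this shift. Pgrmc1, a heme-binding membrane protein gene, had 62.1 maternal and 0.700 paternal FPKM in trophectoderm, against 41.4 and 25.4 FPKM in morulae, a share of 1.12% in trophectoderm and 38.1% in morulae. Thoc2, of the mRNA export complex, had a share of 2.83% in trophectoderm and 41.3% in morulae, and Ccdc22 one of 0% and 49.2%. Plp2 had 176 maternal and 40.8 paternal FPKM in trophectoderm, against 85.4 and 128 FPKM in morulae: its total differed by 0.02 on the log2 scale while its share was 18.8% in trophectoderm and 60% in morulae. Hprt, a purine salvage enzyme gene among the highest X-linked ones, had 949 maternal and 46.3 paternal FPKM in trophectoderm, against 1006 and 350.2 FPKM in morulae (shares 4.65% and 25.8%). Tsix had the largest difference, 23.8% in trophectoderm and 100% in morulae, but 53.3% in the control female morulae; it overlaps Xist on the other strand, and reads of unstranded libraries cannot tell them apart. Xist itself was 95.6% paternal in trophectoderm and 99.5% in morulae, at 15.2 and 20.6 FPKM. In the control female morulae its share was 68.0% (9.15 maternal and 19.5 paternal FPKM), so its direction depended on the morulae used. Vbp1, which encodes a subunit of the prefoldin chaperone, had 22.2% in trophectoderm and 0% in both sets of morulae.

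Genes past 2-fold in total and lower in share combined both kinds of change. Cited1, a transcriptional co-regulator gene of the placenta, had 14.5 maternal and 1.62 paternal FPKM in trophectoderm, against 167 and 83.3 FPKM in morulae. Sat1, which encodes the enzyme that starts polyamine breakdown, had 177 maternal and 3.69 paternal FPKM in trophectoderm, against 980 and 285 FPKM in morulae. Acsl4, an enzyme gene of fatty acid activation, had 1.22 maternal and 0.0839 paternal FPKM in trophectoderm, against 17.6 and 36.9 FPKM in morulae. In these 3 genes, named after their values were seen, both alleles were lower, the paternal one more so. Praf2 had 17.1 maternal and 2.52 paternal FPKM in trophectoderm, against 2.61 and 3.35 FPKM in morulae, so that its maternal allele was higher and its paternal allele lower; its total was not higher than in the control female morulae (-0.47). Among the 12 genes with a higher share were the nuclear envelope gene Emd (36.9% in trophectoderm and 29.1% in morulae) and Taz, which encodes the cardiolipin enzyme tafazzin (21.2% and 17.5%). Their shares in the control female morulae were 62.5% and 50.1%, so the direction of both depended on the morulae used.

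Known escape genes had lower shares too. All 6 members were lower, with a median of 24.9% in trophectoderm and 47.0% in morulae. The histone demethylase gene Kdm6a had 34.4% in trophectoderm and 46.6% in morulae (but 27.5% in the control female morulae, the opposite direction), the translation factor gene Eif2s3x 31.4% and 47.4%, and the RNA helicase gene Ddx3x 12.98% and 33.9%. X-linked housekeeping genes were lower in 26 of 29, with medians of 18.2% in trophectoderm and 25.8% in morulae. Among them the ribosomal gene Rpl10 kept one of the highest shares (36.7% in trophectoderm and 41.9% in morulae), and Nono, an RNA-binding protein gene, one of the lowest (1.99% and 11.5%).

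Imprinted genes on autosomes were compared in the same way. The 10 genes known for imprinting through H3K27me3, with paternal expression in early embryos, had a median share of 96.9% in trophectoderm and 99.6% in morulae. In total 5 passed 2-fold upward and 3 downward, where all genes gave 21.7% and 16.9%. The amino acid transporter gene Slc38a4 had 0.0356 maternal and 52.3 paternal FPKM in trophectoderm, against 0 and 15.2 FPKM in morulae, so its higher level came from the paternal allele. Gab1, a signalling adaptor gene, had a share of 91.4% in trophectoderm and 98.9% in morulae. Epas1, which encodes a hypoxia-inducible factor, had 2.78 maternal and 6.21 paternal FPKM in trophectoderm, against 0.0587 and 22.1 FPKM in morulae, a share of 69.1% in trophectoderm and 99.7% in morulae (83% in the control female morulae). The other imprinted lists held 3 paternally and 6 maternally expressed genes at these levels. Median shares of the 3 paternally expressed genes were 42.7% in trophectoderm and 33.3% in morulae, with 2 genes lower and 1 higher in trophectoderm. Those of the 6 maternally expressed genes were 42.4% in trophectoderm and 45.1% in morulae.

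Autosomal genes with a skewed share in morulae were often less skewed in trophectoderm. Of 135 genes at 20% or less in morulae, 74 were so in trophectoderm, 60 lay between 20% and 80%, and 1 was at 80% or more. Of 74 genes at 80% or more in morulae, 28 were so in trophectoderm, 42 lay between and 4 were at 20% or less. The genes were chosen by their morula value, so part of this difference is fixed by the choice, and nothing is read from it. The extreme cases were genes whose allele values were exactly 0: Snrpf, Mri1 and Raver1-fdx1l were at 0% in trophectoderm and 100% in morulae, and the read depth behind such values is unknown. Among genes with both alleles above 0, Apoa1 had 39.0% in trophectoderm and 88.4% in morulae, and Acaa2 61.4% and 8.36%.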

How the data were processed

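The authors deposited FPKM values per gene, split into a maternal and a paternal column, with the samples of a group pooled. Tools named in the submitters' processing notes are HISAT2 2.2.0, StringTie 2.1.1 and Trim Galore 0.6.4, with the mouse build mm9. For the assignment of reads to alleles and the pooling of samples, the method is not given in the sources used here. Deposited tables hold no counts, so depth and its precision are unknown, and small or exact 0 or 100% shares can rest on few reads that tell the alleles apart. FPKM is relative to each library, so a shift of all genes cannot be read as RNA per embryo.

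From these values the sum of both alleles, log2 ratios on FPKM with a pseudocount of 1, and the paternal share were computed for genes with at least 5 FPKM in trophectoderm or morula and above 0 in both. 5 summary lines were left out. A ratio of at least 2 stood in place of a test, since each group is 1 column. The control female morula column came from a separately normalized table, and a level set across the tables carries that limit. The table of EedmNull embryos was not used. Chromosomes and promoters came from RefSeq (GRCm38.p6), matched by symbol or unique synonym (23950 of 24083 genes; 6223 of 6240 members had a chromosome). Where a gene had several promoters, the first listed was used, and 5093 members had one.

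Genes named were the 15 highest and the 15 lowest ratios, list members by role, the 10 X-linked and 10 autosomal genes with the largest share difference in each direction, and genes next to a limit; others are marked in the text, and a few are not reported here. The members and lists were chosen with earlier results of these data known. Alternatives were other pseudocounts (0.1 and 0), minima (1 and 10 FPKM), scalings and morulae. A value was counted as moved when it differed by over 0.1 on the log2 scale, 2 share points or 1.5-fold in a count. The 2-fold rule was run on simulated totals with known changes. That run did not model pooling, read depth or the split into alleles. Software was Python 3.11.15 with numpy 2.4.6, pandas 2.3.3 and matplotlib 3.10.9.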

Additional observations from a re-analysis of the deposited data

How the results depend on the processing

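No paired analysis was possible because each group is 1 pooled column per allele, and no replicate could be left out. The counts of genes at least 2-fold higher or lower stayed within 1.5-fold of 1355 and 1053 under other pseudocounts, minima of 1 and 10 FPKM, both scalings and inclusion of genes listed at 0. Chosen after seeing the data were 2 more settings, at least 5 FPKM in both groups, and the control female morulae with the median of all genes set to 0, and the X-linked minus autosomal differences below. With 5 FPKM in both groups, 592 genes were higher and 641 lower, since this minimum leaves out the genes that entered through 1 group alone; higher genes were then the smaller number. Against the control female morulae 1554 were higher and 702 lower.

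Over all genes the median log2 ratio was 0.34 against the control female morulae, over the 6088 genes that met the minimum there. The X-linked median of totals, 0.03 here, was 0.25 against them, -0.092 after centring and -0.10 with 5 FPKM in both groups. The X-linked minus autosomal difference of maternal medians, 0.32, was 0.20 with 5 FPKM in both groups. That of paternal medians, -0.81, was -1.48 and -1.52 with pseudocounts of 0.1 and 0, -0.56 with a minimum of 1 FPKM, -0.97 with 5 FPKM in both groups and -1.18 against the control female morulae, centred or not. That of totals, 0.01, was -0.10 against the control female morulae, centred or not. The X-linked share difference of -14.9 points was -18.4 with 10 FPKM in both groups and -19.0 as a ratio of sums. Against the control female morulae it was -16.9 over the 192 X-linked genes that met the minimum there. It was below 0 under every alternative run.

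Of 178 named genes past 2-fold, all remained so under other pseudocounts. Of the 173 measured in the control female morulae, 133 remained past 2-fold, 36 kept the sign only and 4 had the other sign: Ccna2 (0.15), Ctsc (0.73), Ezr (-0.52) and Mvk (-0.42). After centring 131 remained and 7 had the other sign: Cldn4 (-0.048), Ctsc (0.39), Dnmt3l (-0.19), Ezr (-0.86), Insig1 (-0.24), Lamb1 (-0.062) and Mvk (-0.76). After centring the oxidative phosphorylation median was -0.01, with 29 of 61 subunits above 0. The cause of these differences between the morulae was not tested.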

Other observations

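Genes at 5 FPKM or more in one group and listed at 0 in the other stayed out of every ratio. Blnk, an adaptor gene of B cell receptor signalling, had 18.5 maternal and 37.9 paternal FPKM in trophectoderm, and Slc40a1, the iron exporter gene ferroportin, had 7.38 and 7.97 FPKM; both were listed at 0 in morulae. Ppia, an isomerase gene used by every cell, was listed at 2218 FPKM in trophectoderm, all paternal, and at 0 in morulae, and the ribosomal gene Rps7 was listed at 0 in trophectoderm with 451 maternal and 226 paternal FPKM in morulae. A 0 in these tables is therefore not read as silence.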
